A study of Mus musculus with 8 samples.

Results

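The hepatocyte identity transcription factors examined here were Hnf4a, Foxa1, Foxa2, Foxa3, Cebpa, Cebpb, Onecut1, Prox1 and Nr5a2. They were taken by name: the rows of the gene counts whose symbol in the mouse annotation is one of these 9, out of 46078 gene identifiers, and all 9 were among the 13856 genes with enough counts to be tested. The counts are from RNA-seq of whole livers of 4 L-WT and 4 L-ΔRbfox2 mice on a control (chow) diet (CD), with 1 library per liver. L-WT mice, labelled wild-type, carried Rbfox2 alleles flanked by loxP sites and no Cre. L-ΔRbfox2 mice, labelled Rbfox2 knockout, carried the same floxed alleles together with Cre driven by the albumin promoter, which removes the splicing factor RBFOX2 from hepatocytes and leaves it in the other cells of the liver. Livers of both genotypes were taken after 16 h of fasting, with 12 weeks on the diet by the labels. By the study's methods the mice were male unless stated otherwise and were 8 weeks old when put on the diets. The comparison asked whether the transcripts of these factors differ in level when RBFOX2 is missing from hepatocytes. FOXA1 and FOXA2 are of added interest in this study, which also examined them as regulators of Rbfox2 itself.

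Hepatocytes hold their identity through a small network of transcription factors that bind each other's promoters and share target enhancers. The FOXA forkhead proteins open compact chromatin, HNF4A, the C/EBP proteins and ONECUT1 bind beside them, and together they switch on plasma protein, urea cycle, lipoprotein and bile acid genes. In whole-liver RNA, fewer cells of a type and less RNA per cell cannot be told apart.

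Libraries held 37482458 to 56177588 counts, and 3 counts corresponded to between 0.0468 and 0.0929 CPM, counting error only. CPM here are counts in each 1000000 after TMM scaling, whose factors were 0.724 and 0.776 in L-ΔRbfox2 livers 3 and 4, against 1.02 to 1.14 in the other livers. In those 2 livers major urinary protein genes took 43.6% and 37.5% of all counts, against 21.4% to 37.1% elsewhere. Rbfox2 had 653, 518, 549 and 794 counts in L-WT livers 1 to 4 and 202, 390, 77 and 103 in L-ΔRbfox2 livers 1 to 4. As CPM these were 17.1, 10.4, 11.4 and 18.3 against 4.61, 6.09, 2.24 and 3.19. There was no overlap between genotypes (log2 fold change −1.82 ± 0.32 SE; adjusted p = 0.504 by the quasi-likelihood test of edgeR, adjusted by Benjamini-Hochberg over all genes tested). L-ΔRbfox2 liver 2, the library with the most counts, held the most Rbfox2 of its group also as CPM (6.09, beside 2.24 to 4.61). The livers did not divide by genotype on the leading axis of variation over all genes tested. This axis held 54.1% of the variance, and on it L-ΔRbfox2 liver 2 (−0.30) lay with L-WT livers 1 (−0.50) and 4 (−0.46), and the other 5 livers lay between 0.0334 and 0.471. Alb, the defining hepatocyte product, was at 39800 ± 8460 CPM in L-WT and 47400 ± 8830 CPM in L-ΔRbfox2 livers (SD, n = 4), whereas 5 lymphocyte markers summed to at most 1.69 CPM in any liver.

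None of the 9 factors passed the threshold of an adjusted p of 0.05, and neither did any of the 13856 genes tested (0%), although 1356 genes had an unadjusted p under 0.05 in edgeR. With the same counts limma-voom called 0 genes past the threshold, with 979 at an unadjusted p under 0.05, and DESeq2 called 10, none of them one of the 9 factors. At an unadjusted p under 0.05, 1 of the 9 factors, Cebpb, was lower in L-ΔRbfox2 livers, beside 1.83% of all genes tested, and 0 were higher, beside 7.95%. For 0 of the 9 did the genotypes' ranges separate, beside 1.23% of all genes with every L-ΔRbfox2 liver below every L-WT liver and 1.05% with every one above. The fitted log2 fold change (L-ΔRbfox2 over L-WT) was negative for 7 of the 9, with a median of −0.24 (−0.43 to −0.097 under 21 alternatives, nearest to 0 with 1 surrogate variable), while over all genes tested the median was −0.015 and 48.4% were positive. The count of 1 rested on which livers were used: without L-ΔRbfox2 liver 2 it was 5 of 9 (Cebpb, Onecut1, Foxa2, Cebpa and Prox1), and in that fit 8.08% of all 14005 genes were lower at the same p and the smallest adjusted p of any gene was 0.0834. Without L-WT liver 4 it was 3, beside 0.895% of all genes in that fit, and without L-WT liver 3 it was 2, beside 2.34%.

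**Figure D1:**
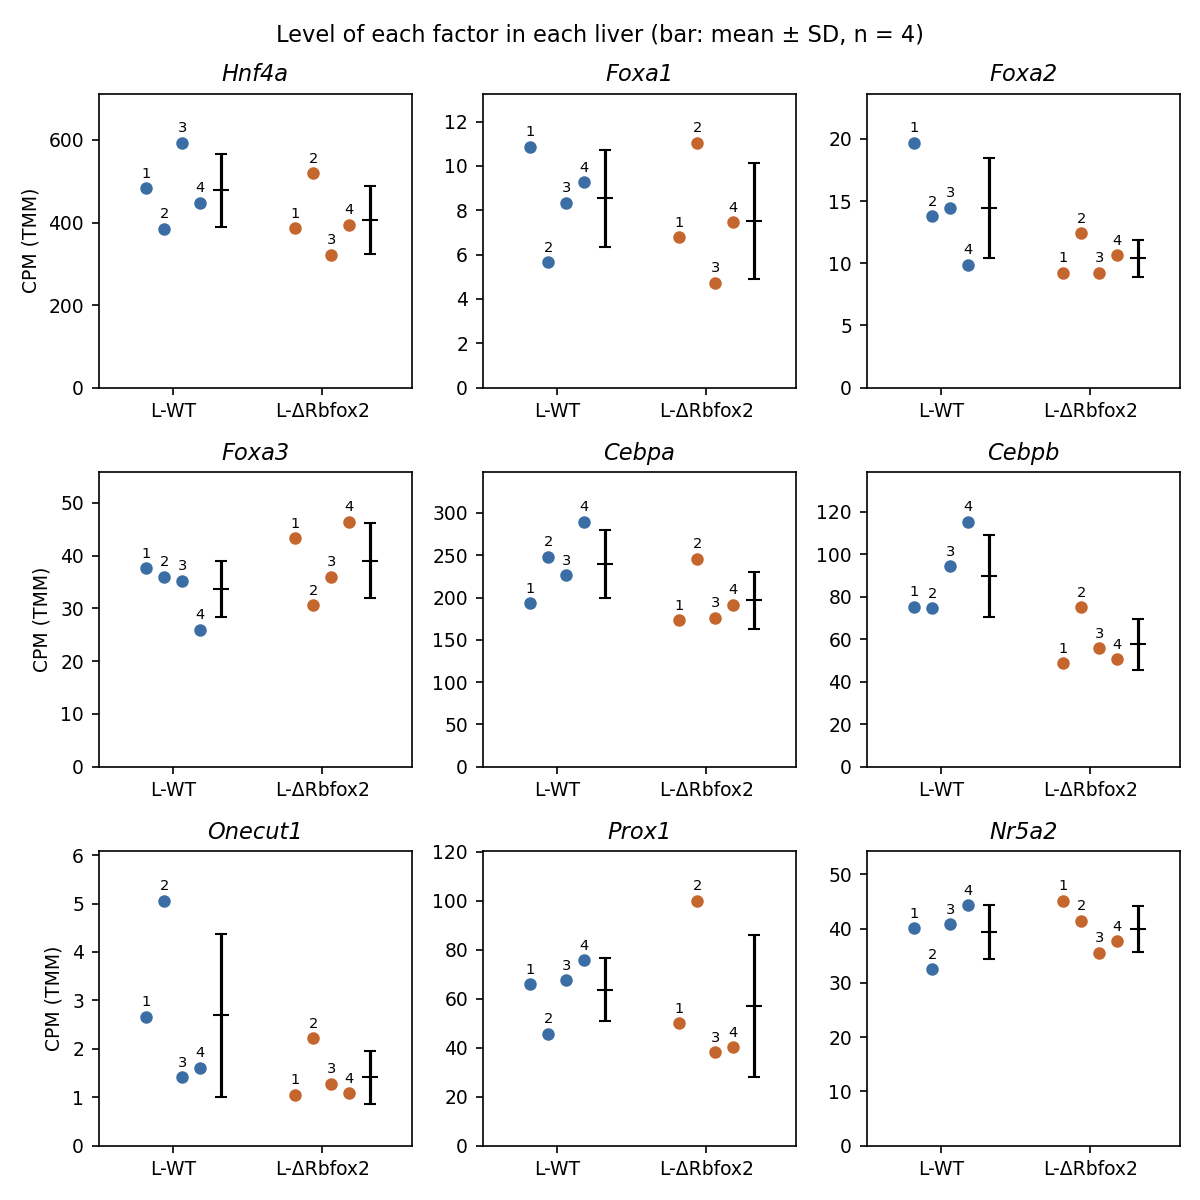
TMM-scaled CPM of each of the 9 factors, 1 panel per gene with its own axis from 0. Points are single livers with their replicate number, blue for L-WT and orange for L-ΔRbfox2, and bars give the mean ± SD (n = 4). The ranges of the genotypes overlap in all 9 panels, and L-ΔRbfox2 liver 2 is the highest of its group in 7 of them.

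The upstream sequences of the factors are shown first for Hnf4a, since its 2 annotated starts are merged in 1 gene count, and for Cebpb, Foxa2 and Onecut1, the 3 factors with the smallest unadjusted p. They are from RefSeq on GRCm38.p6, given 5′ to 3′ on the gene's strand as the 250 bases before a start or the part of these that GENCODE M21 does not annotate as an exon. Capitals mark matches, on either strand, to the motif of FOXA (TGTTTAC or, as a variant, TGTTTGC), ONECUT (ATTGAT), HNF1 (GTTAAT), C/EBP (TTNNGCAA) or the TATA box (TATAAA). The upstream start of Hnf4a at chr2:163506607-163506807 (plus strand) and its downstream start at chr2:163546943-163547154 (plus strand), inside the gene between annotated exons, are followed by Foxa2 at chr2:148046970-148047219 (minus strand), Cebpb at chr2:167688665-167688914 (plus strand) and Onecut1 at chr9:74861671-74861920 (plus strand).
Hnf4a upstream start: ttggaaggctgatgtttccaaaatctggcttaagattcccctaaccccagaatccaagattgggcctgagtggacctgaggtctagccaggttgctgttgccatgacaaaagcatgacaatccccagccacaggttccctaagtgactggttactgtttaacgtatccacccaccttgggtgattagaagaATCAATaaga
Hnf4a downstream start: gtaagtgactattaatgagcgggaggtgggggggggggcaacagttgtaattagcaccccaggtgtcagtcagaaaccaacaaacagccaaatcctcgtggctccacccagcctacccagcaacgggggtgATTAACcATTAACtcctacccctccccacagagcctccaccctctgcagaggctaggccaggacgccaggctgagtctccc
Foxa2: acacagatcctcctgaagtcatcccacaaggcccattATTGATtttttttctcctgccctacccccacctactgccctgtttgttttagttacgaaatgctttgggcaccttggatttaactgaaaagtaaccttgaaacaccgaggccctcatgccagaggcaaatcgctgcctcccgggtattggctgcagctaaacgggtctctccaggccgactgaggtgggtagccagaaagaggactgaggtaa
Cebpb: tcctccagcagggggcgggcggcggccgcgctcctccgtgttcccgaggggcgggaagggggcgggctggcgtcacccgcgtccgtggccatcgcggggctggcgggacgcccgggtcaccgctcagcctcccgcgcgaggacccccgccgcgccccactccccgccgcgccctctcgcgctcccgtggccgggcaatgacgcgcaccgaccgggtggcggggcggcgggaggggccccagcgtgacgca
Onecut1: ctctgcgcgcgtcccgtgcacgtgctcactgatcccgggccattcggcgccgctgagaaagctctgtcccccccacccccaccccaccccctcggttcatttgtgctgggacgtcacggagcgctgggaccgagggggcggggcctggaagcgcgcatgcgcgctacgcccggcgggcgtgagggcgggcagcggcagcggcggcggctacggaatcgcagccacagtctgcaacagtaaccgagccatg

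An ONECUT match stands in the window of the upstream Hnf4a start and in this Foxa2 window, and a pair of HNF1 matches, 1 base apart, in the window of the downstream Hnf4a start. In the printed stretches no match overlaps one of another motif. The table of RefSeq windows holds 14 for the 9 factors, from 1 to 3 a gene. Of these, 2 held a FOXA match (Foxa1 and 1 of Prox1), against 7.29% of 32851 mouse windows of this length. An ONECUT match was in 2 of the 14 (6.72% of all windows) and an HNF1 match in 3 (6.43%), in Hnf4a, Foxa2 and Nr5a2. The C/EBP letters occurred in 1, upstream of Nr5a2 (9.56% of all), and the TATA letters in 5 (12.4% of all). The windows of Cebpb and Onecut1 held none of these letters. A match describes the letters only and says nothing of whether a factor binds there.

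HNF4A is a nuclear receptor that sits at the centre of the network and drives apolipoprotein and clotting factor genes. Its gene lies at chr2:163506808-163572910 on the plus strand. Hnf4a had 483, 385, 594 and 448 CPM in L-WT livers 1 to 4 and 387, 520, 322 and 394 CPM in L-ΔRbfox2 livers 1 to 4. The lowest value was in L-ΔRbfox2 liver 3 and the highest in L-WT liver 3, and the ranges overlapped, with L-WT liver 2 below 3 of the 4 L-ΔRbfox2 livers. Mean levels were 478 ± 87.4 and 406 ± 82.9 CPM (SD, n = 4), a log2 fold change of −0.24 ± 0.20 (SE; unadjusted p = 0.278, adjusted p = 0.635 in edgeR). The 95% interval from limma-voom ran from −0.69 to 0.21 and included 0. Hnf4aos, the antisense RNA within the gene, shares no exon base with it and had 50 to 162 counts per liver.

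The 3 FOXA paralogues are pioneer factors with nearly the same forkhead DNA-binding domain, first described as hepatocyte nuclear factor 3 proteins. Foxa1 lies at chr12:57540628-57546916, Foxa2 at chr2:148042877-148046969 and Foxa3 at chr7:19013284-19023538, all on the minus strand. Their transcripts share no stretch of 100 or 50 bases with each other or with any other of the 9 factors, and Foxa1 and Foxa2 share 9 stretches of 30 bases, so a run of 100 bases belongs to 1 of them. Foxa1 had 10.9, 5.66, 8.34 and 9.26 CPM in L-WT livers 1 to 4 and 6.78, 11.1, 4.74 and 7.46 CPM in L-ΔRbfox2 livers 1 to 4. Both extremes of Foxa1 were L-ΔRbfox2 livers, 2 and 3, and the groups lay across each other (log2 fold change −0.18 ± 0.29 SE; adjusted p = 0.778 in edgeR). Foxa2, the member of the family also known for the fasting response of the liver, had 19.7, 13.8, 14.5 and 9.88 CPM in L-WT livers 1 to 4 and 9.25, 12.4, 9.25 and 10.7 CPM in L-ΔRbfox2 livers 1 to 4. L-WT livers 1, 2 and 3 lay above all L-ΔRbfox2 livers, and L-WT liver 4 lay among the latter. Group means of Foxa2 were 14.5 ± 4.04 and 10.4 ± 1.49 CPM (SD, n = 4), a log2 fold change of −0.48 ± 0.23 SE (unadjusted p = 0.0583, adjusted p = 0.511 in edgeR; two-sided exact permutation p = 0.0857). Without L-WT liver 1, the highest, this was −0.32.

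Foxa3 differed from its paralogues in the sign of its estimate, although that of Foxa1 also turned positive (0.20) with 1 surrogate variable in the model. It had 37.6, 36.0, 35.3 and 25.9 CPM in L-WT livers 1 to 4 and 43.3, 30.6, 36.0 and 46.5 CPM in L-ΔRbfox2 livers 1 to 4. The 2 highest livers were L-ΔRbfox2 livers 4 and 1, and the lowest was L-WT liver 4, with the others in between (log2 fold change 0.21 ± 0.19 SE; adjusted p = 0.64 in edgeR). Within each library, Foxa3 had 1.91, 2.61, 2.44 and 2.62 counts for each Foxa2 count in L-WT livers 1 to 4, and 4.68, 2.46, 3.89 and 4.36 in L-ΔRbfox2 livers 1 to 4. This ratio, which does not depend on library scaling, averaged 2.40 ± 0.34 and 3.85 ± 0.98 (SD, n = 4). L-ΔRbfox2 liver 2 lay within the L-WT range and the other 3 above it. The pair was chosen after its values were seen, so no test is given.

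C/EBPα and C/EBPβ are leucine zipper proteins that bind the same sites and can pair with each other. C/EBPα holds adult hepatocytes in a resting, metabolic state, and C/EBPβ is induced by glucagon, inflammation and injury and is also made by macrophages. Cebpa (chr7:35119293-35121928, plus strand) had 194, 248, 227 and 290 CPM in L-WT livers 1 to 4 and 173, 246, 176 and 192 CPM in L-ΔRbfox2 livers 1 to 4. L-ΔRbfox2 livers 1, 3 and 4 were the 3 lowest of all 8 and liver 2 lay just below L-WT liver 2 (log2 fold change −0.28 ± 0.19 SE; unadjusted p = 0.163, adjusted p = 0.57 in edgeR).

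Cebpb (chr2:167688915-167690418, plus strand, a gene of 1 exon) had the smallest p of the 9. It had 75.2, 74.5, 94.2 and 115 CPM in L-WT livers 1 to 4 and 48.7, 75.1, 55.7 and 50.6 CPM in L-ΔRbfox2 livers 1 to 4. L-ΔRbfox2 livers 1, 3 and 4 lay below every L-WT liver, and the ranges met only through L-ΔRbfox2 liver 2, which was level with L-WT livers 1 and 2. The mean in L-ΔRbfox2 livers was 64.1% of that in L-WT livers, 57.5 ± 12.1 against 89.8 ± 19.3 CPM (SD, n = 4). The log2 fold change was −0.64 ± 0.21 SE, with a 95% interval of −1.10 to −0.18 from limma-voom. edgeR gave an unadjusted p of 0.0114 and an adjusted p of 0.504, and the two-sided exact permutation test over livers gave p = 0.0571, where the smallest p that 70 splits allow is 0.0286. Under the 21 alternatives the estimate lay between −0.89 and −0.45, the unadjusted p was under 0.05 in 21 of 21, and the adjusted p lay between 0.0834 and 0.956.

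Values of other genes stood beside that of Cebpb. Markers of Kupffer cells, the liver's macrophages, summed to 65.1 to 113 CPM in L-WT and 37.3 to 74.1 CPM in L-ΔRbfox2 livers. Of these 7 markers, 2 were lower and 0 higher at an unadjusted p under 0.05 in edgeR, beside 1.83% and 7.95% of all genes tested. The 2 were Csf1r (−0.94 ± 0.27 SE, log2) and Clec4f (−0.73 ± 0.26 SE, log2). The other 5 had log2 fold changes from −0.42 (Cd5l) through −0.26 (Vsig4), −0.10 (Adgre1) and 0.08 (Timd4) to 0.48 (Marco), and the median of the list was −0.26, which turned to 0.053 without L-WT liver 3. The part of these cells in the value of Cebpb was not tested. Of the 1504 exon bases of Cebpb, 312 are also exonic on the other strand in Tmem189, which had 260 to 676 counts per liver, against 1635 to 5008 for Cebpb. Whether the counting used strand is not given in the sources used here.

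Since both C/EBP genes were read in the same libraries, their ratio is free of scaling. Cebpa had 2.58, 3.33, 2.40 and 2.51 counts for each Cebpb count in L-WT livers 1 to 4 and 3.56, 3.27, 3.17 and 3.79 in L-ΔRbfox2 livers 1 to 4. L-WT liver 2 lay among the L-ΔRbfox2 livers and the other 3 below them. The means were 2.71 ± 0.42 and 3.45 ± 0.28 (SD, n = 4), a log2 difference of 0.36 that missed the threshold in the two-sided exact permutation test (p = 0.0857). Without L-WT liver 2 the log2 difference was 0.46 and the ranges no longer met (exact permutation p = 0.0286, the smallest that this smaller design can give). That liver was the one that made the ranges meet, so leaving it out fixed this p in advance, and nothing is drawn from it. With each of the other 7 left out in turn the difference lay between 0.30 and 0.40 and the exact permutation p between 0.0857 and 0.114.

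**Figure D2:**
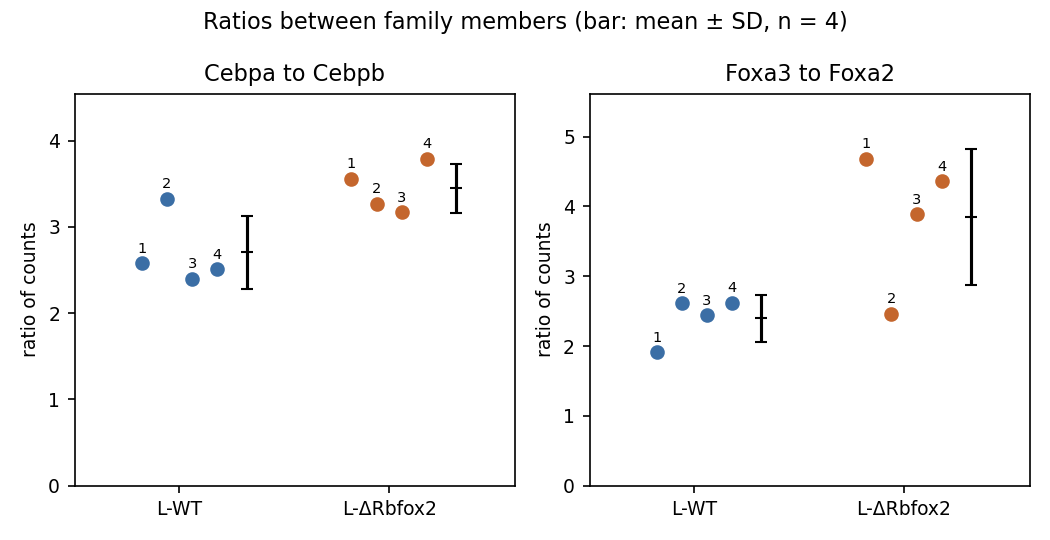
Counts of Cebpa for each count of Cebpb (left) and of Foxa3 for each of Foxa2 (right) in each liver, on axes from 0. Points are single livers with their replicate number, and bars give the mean ± SD (n = 4). On the left L-WT liver 2, at 3.33, lies among the L-ΔRbfox2 livers, and on the right L-ΔRbfox2 liver 2, at 2.46, lies among the L-WT livers.

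ONECUT1, also called HNF6, is a cut-homeodomain protein that acts in liver and bile duct development and in adult glucose metabolism. Its gene (chr9:74861921-74891781, plus strand) was the least abundant of the 9 and had the largest estimate. Counts were 102, 252, 68 and 70 in L-WT livers 1 to 4 and 46, 142, 44 and 35 in L-ΔRbfox2 livers 1 to 4. As CPM these were 2.66, 5.06, 1.41 and 1.61 against 1.05, 2.22, 1.28 and 1.08. L-WT livers 2 and 1 were the 2 highest and L-ΔRbfox2 liver 2 lay above L-WT livers 3 and 4, while the other 3 L-ΔRbfox2 livers were the 3 lowest of all. The log2 fold change was −0.92 ± 0.44 SE (unadjusted p = 0.0599, adjusted p = 0.511 in edgeR; two-sided exact permutation p = 0.171). Without L-WT liver 2 it was −0.41, and without L-ΔRbfox2 liver 2 it was −1.24. Of its 4113 exon bases, 2171 are shared on the same strand with the lincRNA Gm20649, which had 0 counts in every liver although 569 of its own exon bases are unshared. How reads in the shared bases were counted was not tested. Over the 1942 unshared bases alone, the same counts would give 1.05 CPM per kb in place of 0.498.

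PROX1 is a homeodomain protein needed for hepatoblasts to migrate out of the liver bud, and in adult hepatocytes it restrains HNF4A and NR5A2. Prox1 (chr1:190118035-190170714, minus strand) had 66.1, 45.7, 67.5 and 75.7 CPM in L-WT livers 1 to 4 and 49.98, 100.2, 38.1 and 40.1 CPM in L-ΔRbfox2 livers 1 to 4. L-ΔRbfox2 liver 2 was the highest of all 8, and livers 3 and 4 of that genotype were the lowest. In proportion to the mean, this spread within L-ΔRbfox2 livers (SD of 51.1% of the mean) was the widest of the 9 factors, and the log2 fold change was −0.16 ± 0.31 SE (adjusted p = 0.825 in edgeR). The value depended on that liver, and without it the log2 fold change was −0.58 (unadjusted p = 0.0194, adjusted p = 0.144). The antisense RNA Prox1os overlaps 133 exon bases of Prox1 and had 157 to 403 counts per liver, against 1296 to 6415 for Prox1.

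NR5A2, or LRH-1, is a nuclear receptor that binds phospholipids and acts on genes of bile acid synthesis and cholesterol export. Nr5a2 (chr1:136842571-136960448, minus strand) had 40.1, 32.5, 40.8 and 44.3 CPM in L-WT livers 1 to 4 and 45.2, 41.4, 35.5 and 37.7 CPM in L-ΔRbfox2 livers 1 to 4. The highest liver was L-ΔRbfox2 liver 1 and the lowest L-WT liver 2, with the groups interleaved. Its mean in L-ΔRbfox2 livers was 101% of that in L-WT livers (log2 fold change 0.02 ± 0.16 SE; adjusted p = 0.962 in edgeR). With a 95% interval of −0.34 to 0.38 on the log2 scale from limma-voom, this was the narrowest interval of the 9.

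**Figure D3:**
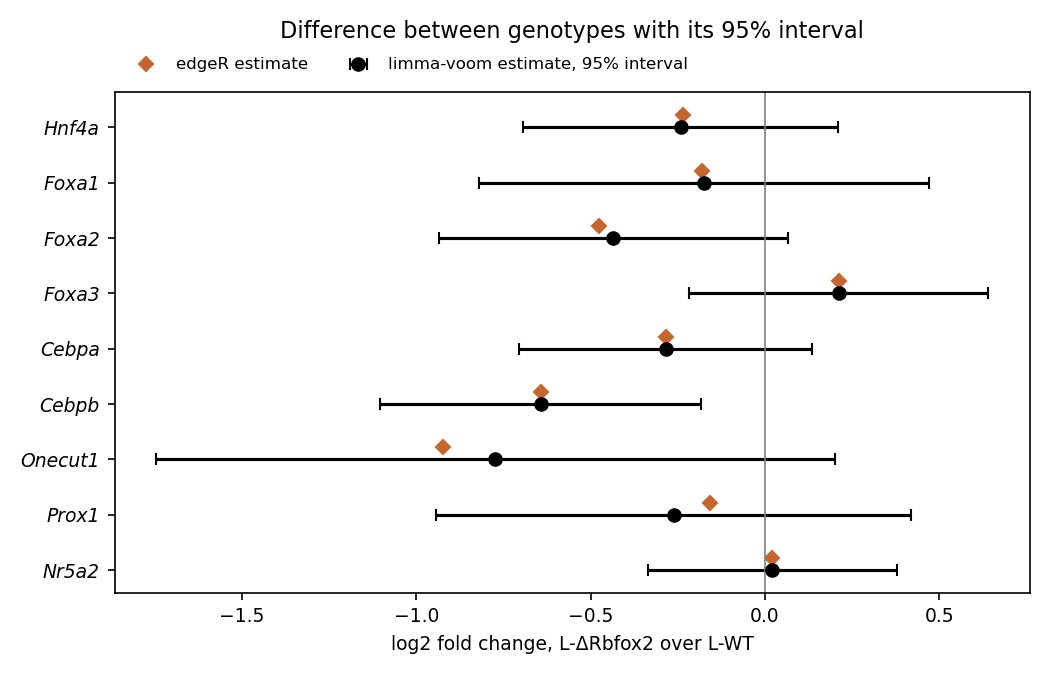
Log2 fold change of each factor, L-ΔRbfox2 over L-WT. Black points and lines are the limma-voom estimate with its 95% interval, orange diamonds the edgeR estimate. The interval of Cebpb, −1.10 to −0.18, lies below 0, and those of the other 8 factors include 0.

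The factors differed far more from each other than between genotypes. Per kb of exon and averaged over the 8 livers, Hnf4a was at 91.5 CPM per kb and Cebpa at 82.8, both above at least 96.8% of the genes tested. Hnf4a exceeded Cebpa in 5 of 8 livers only, so this pair is not ordered beyond its spread. Cebpb followed at 49.0 and Foxa3 at 17.9 CPM per kb, each above the next factor in 8 of 8 livers. Prox1 (7.20 CPM per kb) and Nr5a2 (6.73) were not ordered, with Prox1 above in 4 of 8 livers, and Nr5a2 was above Foxa2 (5.24) in 6 of 8. Foxa2 was above Foxa1 (2.41) and Foxa1 above Onecut1 (0.498) in 8 of 8 livers. Among the FOXA genes the order was thus Foxa3, Foxa2, Foxa1 in every liver. Onecut1 was above 25.1% of the genes tested, and Foxa1 above 57.8%. The rank of Onecut1 and its place below Foxa1 in 8 of 8 livers are for all its exon bases. Over the bases not shared with Gm20649 alone, Onecut1 would average 1.05 CPM per kb, and its order against Foxa1 by liver was not examined there.

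**Figure D4:**
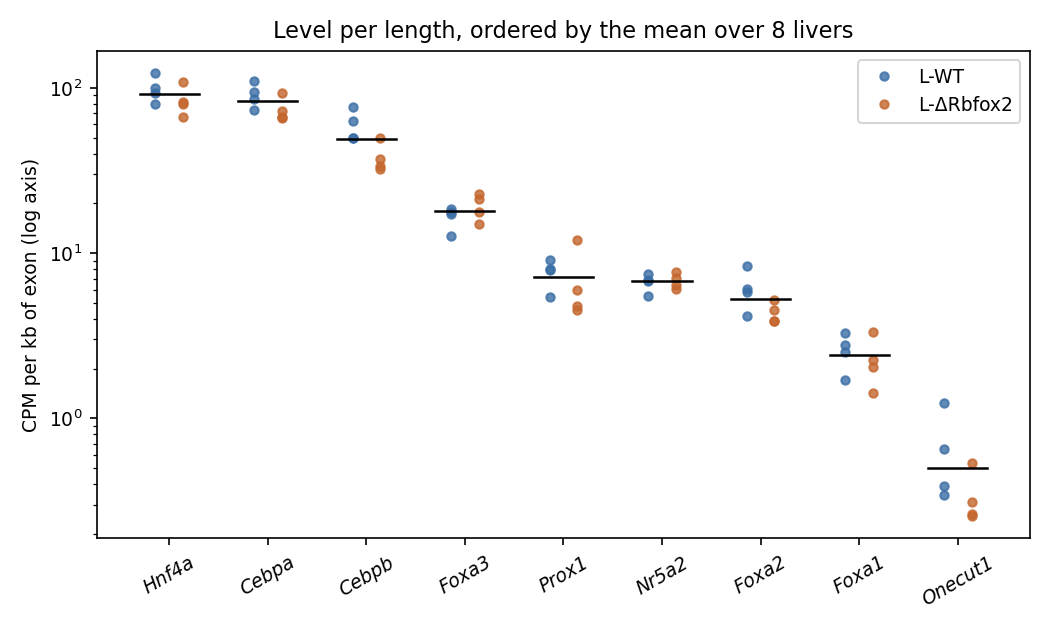
CPM per kb of exon of the 9 factors, on a log axis, ordered by the mean over 8 livers (black line). Points are single livers, blue for L-WT and orange for L-ΔRbfox2. The means run from 91.5 for Hnf4a to 0.498 for Onecut1, taken over all its exon bases including those shared with Gm20649, and the 2 genotypes overlap at each factor.

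Several of the factors varied together between livers. Over the 36 pairs of factors the Pearson correlation of log2 CPM over 8 livers, which share their depth and scaling, had a median of 0.36 and was positive in 26 pairs. The same values over pairs of all genes tested are not given here, and the leading axis held 54.1% of the variance of those genes. Such correlations are thus not shown to be particular to the factors. Hnf4a, Foxa1 and Prox1 were the group most alike (0.803 for Hnf4a with Foxa1, 0.809 for Hnf4a with Prox1, 0.857 for Foxa1 with Prox1), and Cebpa and Cebpb had 0.858. Foxa3 had no positive correlation with any other factor and reached −0.843 with Cebpb and −0.816 with Cebpa. L-ΔRbfox2 liver 3 was the lowest of the 8 livers for 4 of the 9 factors and among the lowest 2 for 6, whereas L-ΔRbfox2 liver 2 was the highest of its genotype for 7. That liver also held the most Rbfox2 of its group and lay with L-WT livers 1 and 4 on the leading axis, and the part of either in these values was not tested. The shares of all genes tested with the same ranks of these livers are not given here. Across all genes tested, the gene whose pattern over the 8 livers was most like that of Hnf4a was Ubqln1 (r = 0.963). For Foxa1 it was Ap1g1 (0.989), for Foxa2 Itpripl2 (0.94), for Foxa3 Tlr2 (0.979) and for Cebpa Fam102a (0.958). Cebpb was most like Srebf2 (0.977), Onecut1 like Rgs3 (0.924), Prox1 like Acacb (0.988) and Nr5a2 like Exoc6b (0.964). These are descriptions over 8 livers, picked as the highest of 13856.

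The close relatives of the factors were mostly rare. Of 9 paralogues, Hnf4g, Onecut3 and Nr5a1 had too few counts to be tested, with at most 6 in any liver. Onecut2, the relative of Onecut1, had 75.2, 36.3, 38.5 and 67.0 CPM in L-WT livers 1 to 4 and 47.1, 57.2, 24.6 and 32.9 CPM in L-ΔRbfox2 livers 1 to 4, with overlapping ranges (log2 fold change −0.42 ± 0.32 SE; adjusted p = 0.598 in edgeR). Ddit3, the C/EBP relative induced by stress of the endoplasmic reticulum, had 3.97 ± 1.19 and 5.87 ± 1.69 CPM (SD, n = 4; unadjusted p = 0.0669), and Cebpd and Cebpg had log2 fold changes of −0.23 and 0.02. None of the 6 tested paralogues had an unadjusted p under 0.05, and their median log2 fold change was −0.11.

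Among 33 other regulators of liver genes, 1 was higher and 1 lower at an unadjusted p under 0.05 in edgeR, beside 7.95% and 1.83% of all genes tested. None of the 33 passed the threshold, and the median log2 fold change was −0.15 (0.028 with 1 surrogate variable). Nr1i2, the xenobiotic receptor PXR, had 52.8, 49.7, 58.7 and 62.7 CPM in L-WT livers 1 to 4 and 43.6, 49.1, 42.8 and 40.1 CPM in L-ΔRbfox2 livers 1 to 4. It was the only gene of the 33 with every L-ΔRbfox2 liver below every L-WT liver, beside 1.23% of all genes tested. The margin was less than 1 CPM (log2 fold change −0.35 ± 0.15 SE; adjusted p = 0.504 in edgeR). Bcl6, a repressor that opposes PPARα at lipid genes, had 5.46 ± 3.34 and 15.1 ± 11.2 CPM (SD, n = 4; unadjusted p = 0.0416, adjusted p = 0.504 in edgeR), with overlapping ranges. The circadian factor Hlf had a log2 fold change of −0.39 (unadjusted p = 0.0847). Atf5 and Creb3l3, the most abundant of the list by CPM, had −0.004 and −0.14.

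Genes that the factors are known to drive were read beside them. Of 36 hepatocyte products 0 were higher and 0 lower at an unadjusted p under 0.05 in edgeR, beside 7.95% and 1.83% of all genes tested. The median log2 fold change of the products was 0.14, against −0.24 for the 9 factors and −0.015 for all genes tested. Rbp4 (0.52 ± 0.26 SE), Apoc3 (0.60 ± 0.31 SE) and Cyp7a1 (1.16 ± 0.59 SE), the bile acid synthesis enzyme, had the smallest p of the list on the log2 scale, between 0.0744 and 0.0829 unadjusted. The median of the products was 0.012 with the libraries corrected for gene length, −0.016 with length and GC content corrected, −0.035 with a replicate block as well, and −0.012 with 1 surrogate variable. Of 9 HNF4A targets 0 had an unadjusted p under 0.05 (median log2 fold change 0.30), with Apoa1 at 5400 ± 1210 CPM in L-WT and 6910 ± 1240 CPM in L-ΔRbfox2 livers (SD, n = 4). That median was 0.0016 with the length correction, −0.05 with both corrections and 0.15 without L-WT liver 1. The 5 FOXA targets (median 0.13, but −0.14 with the length correction and −0.18 without L-ΔRbfox2 liver 1) and 6 C/EBP targets (median 0.062, from −0.19 to 0.19 under the alternatives) gave 0 as well. In each of these 2 lists 3 estimates were positive. Pck1 (−0.31 ± 0.21 SE), Tat (−0.28 ± 0.29 SE) and Alb (0.25 ± 0.23 SE, all on the log2 scale) belong to both lists, so the lists are not separate readings. Of 7 NR5A2 targets (median −0.012), 1 was lower at an unadjusted p under 0.05 in edgeR, beside 1.83% of all genes tested. This was the sterol exporter Abcg8, with 51.7 ± 15.1 and 35.7 ± 3.33 CPM (SD, n = 4; log2 fold change −0.53 ± 0.22 SE; adjusted p = 0.504 in edgeR).

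Genes of fetal liver and of bile ducts, which are known to appear when hepatocyte identity is lost, were rare. Of 9 fetal liver genes, 7 had too few counts to be tested, and the whole list summed to at most 1.34 CPM in any liver. Afp, the fetal counterpart of albumin, had 0.268 ± 0.0453 and 0.449 ± 0.302 CPM (SD, n = 4). Its higher mean in L-ΔRbfox2 livers came from liver 3, at 0.902 CPM, beside 0.274 to 0.312 in the other 3. Biliary markers summed to 14.7 to 25.9 CPM in L-WT and 16.6 to 61.2 CPM in L-ΔRbfox2 livers, mostly Spp1, which macrophages make as well, and 0 of the 4 tested had an unadjusted p under 0.05. The log2 fold changes of these 4 were all positive, at 0.83 ± 0.43 SE for Spp1, 0.70 ± 0.45 for Epcam, 0.37 ± 0.42 for Krt19 and 0.08 ± 0.35 for Sox9, with a median of 0.53 that was 0.17 without L-ΔRbfox2 liver 3 and 0.072 with 1 surrogate variable. Krt19 and Epcam were at 0.207 to 1.89 CPM over all livers.

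Markers of other liver cells were read beside the factors. Sinusoidal endothelial markers (0 of 6 at an unadjusted p under 0.05, median log2 fold change −0.24, and −0.0099 with 1 surrogate variable) summed to 71.9 to 102 CPM in L-WT and 56.0 to 82.9 CPM in L-ΔRbfox2 livers, and stellate cell markers (0 of 6, median −0.004) to 65.0 to 125 and 83.7 to 126 CPM. Erythroid markers, among them Hba-a1 and Hba-a2, near-identical copies between which the split of reads is uncertain, summed to 382 to 729 CPM in L-WT and 627 to 1530 CPM in L-ΔRbfox2 livers. Of these, 4 of 5 were higher at an unadjusted p under 0.05 in edgeR, beside 7.95% of all genes tested. The 4 were globin genes (Hba-a1, Hba-a2, Hbb-bs and Hbb-bt), and Alas2 had a log2 fold change of 0.21. The median of the list was 0.69, and 0.25 with the length correction. The part of blood in the factors' values was not tested.

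The RNA letters that RBFOX proteins bind, written TGCATG in the DNA alphabet, were looked for on the sense strand in the longest annotated transcript of each factor, since the study's question is about RBFOX2. They occurred in 6 of the 9, beside 55.0% of 13806 tested genes with a transcript. Foxa1 held 3, Nr5a2 2, and Hnf4a, Foxa3, Onecut1 and Prox1 1 each, while Foxa2, Cebpa and Cebpb held 0. Introns, where these proteins mostly act on splicing, were not analysed here. The Foxa1 and Nr5a2 sites are given with the bases around them from GENCODE M21 transcripts, TGCATG in capitals, by position from 1 at the transcript's 5′ end. Those of Nr5a2 and the first of Foxa1 lie in the coding part.
Foxa1 position 795: atgaacccgTGCATGagtcccatg
Foxa1 position 1817: ggttttgtcTGCATGgccaacctg
Foxa1 position 2982: ttaatttatTGCATGgtttactcc
Nr5a2 position 979: acagcagccTGCATGgttaccaac
Nr5a2 position 1822: ttgagatgcTGCATGccaaaagag

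Each estimate was recomputed with other processing and with each liver left out. Under the 21 alternatives, Foxa2 lay between −0.62 and −0.32 on the log2 scale, Onecut1 between −1.24 and −0.41, Cebpa between −0.41 and −0.11 and Hnf4a between −0.38 and −0.08. Foxa3 stayed above 0 (0.0031 to 0.31). The estimates of Foxa1 (−0.43 to 0.20), Prox1 (−0.58 to 0.22) and Nr5a2 (−0.10 to 0.15) took both signs. At an unadjusted p under 0.05 stood Onecut1 in 7 of 21, Foxa2 in 5, Cebpa and Prox1 in 1 each, and Hnf4a, Foxa1, Foxa3 and Nr5a2 in 0.

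**Figure D5:**
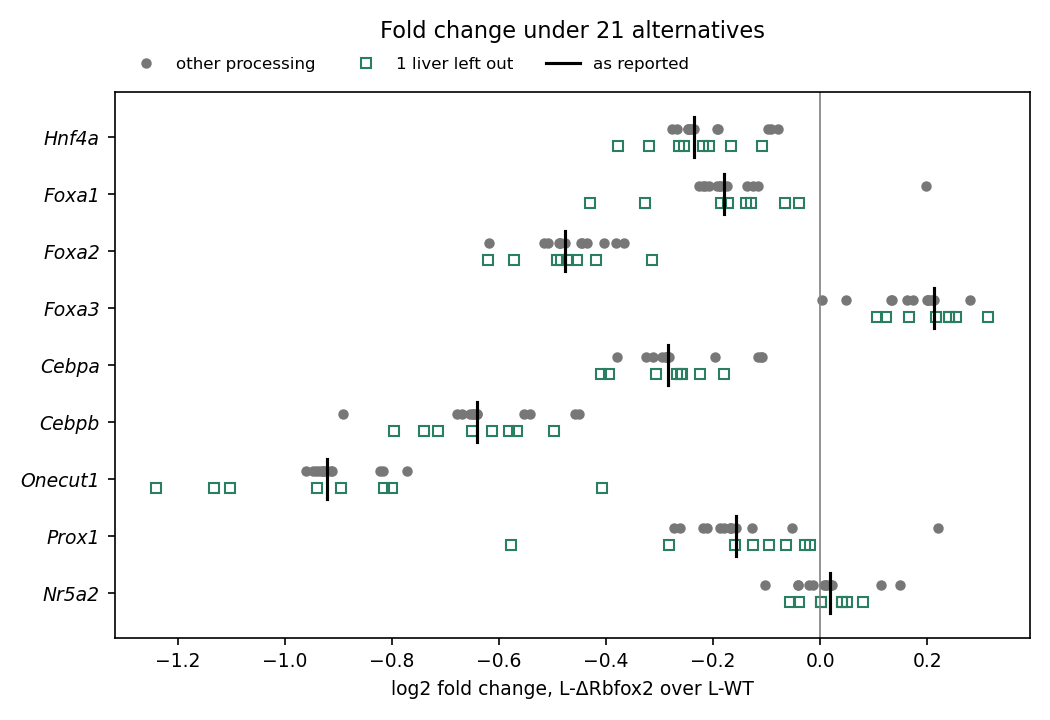
Log2 fold change (L-ΔRbfox2 over L-WT) of each factor as reported (black line), with 1 liver left out (green squares) and under other processing (grey points). Cebpb stays between −0.89 and −0.45, Onecut1 shrinks to −0.41 without L-WT liver 2, and Prox1 falls to −0.58 without L-ΔRbfox2 liver 2.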

How the data were processed

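The authors extracted RNA from 8 livers, enriched poly(A) RNA, sequenced paired ends, aligned reads to GRCm38 (mm10) with TopHat2 2.0.11 and deposited featureCounts gene counts as whole numbers without normalization, for 46078 identifiers. The featureCounts version and its strand and multi-mapping settings are not given in the sources used here. The methods give a longer time on the diets than the labels. Each of the 8 columns was matched to its liver by name, and 0 were left unmatched. GENCODE M21 supplied symbols (45229 identifiers matched), positions and exon lengths, and RefSeq the upstream sequences.

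The genotypes were compared with edgeR 4.0.16 (R 4.3.3): filterByExpr (minimum count 10, minimum total 15) kept 13856 genes, TMM scaled the libraries, and glmQLFit and glmQLFTest gave the p-values, with Benjamini-Hochberg adjustment over all genes tested and a threshold of 0.05. Standard errors and 95% intervals are from limma-voom (limma 3.58.1). The permutation tests were exact and two-sided, over 70 splits of the livers, or fewer splits where a liver was left out. The scripts were tested on simulated data. Nothing in the sources ties livers to a litter or batch, and the p-values set the difference between genotypes against the spread between these livers.

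The 9 factors and all other gene lists were chosen with earlier results of these data known. From each list, the genes named beside the factors were chosen from the 3 with the smallest p and the 2 with the highest mean CPM. Not all of these are named. For Kupffer cell and erythroid markers every gene of the list is named. Also named were the gene most like each factor over 8 livers, genes overlapping a factor and Rbfox2. The lists of products, targets, relatives and cell type markers come from general knowledge.

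The alternatives were DESeq2 1.42.0 or upper-quartile factors, the DESeq2 and limma-voom tests, no filter or at least 10 counts in every liver, robust estimation, the replicate number as a block, lowess corrections (span 0.3) for gene length, GC content or both, also with the block, 1 surrogate variable (sva 3.50.0) and each liver left out in turn.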

Additional observations from a re-analysis of the deposited data

Results flagged for a closer look

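Among 112 groups of 4 livers examined, 2 held a liver far from the other 3 of its group, where chance alone gives about 5.6 (1 in 20). None of the 18 groups of the 9 factors did. Ddit3 was at 5.75 CPM in L-WT replicate 1, beside 3.21 to 3.57 in the other L-WT livers. Afp was at 0.902 CPM in L-ΔRbfox2 replicate 3, beside 0.274 to 0.312 in the others of that genotype.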

How the results depend on the processing

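None of the 9 factors passed the threshold under any alternative, which says nothing of stability, since with 4 livers a group differences of their size can hardly pass it in edgeR. The count of all genes past it was 0 except with the DESeq2 test, which gave 10. At an unadjusted p under 0.05 the factors lower in L-ΔRbfox2 livers numbered 2 with upper-quartile factors, the DESeq2 test and the length correction, beside 2.44%, 2.59% and 2.90% of all genes in the same fits, and 3 without a filter on low counts, beside 2.54%. They numbered between 1 and 5 with 1 liver left out. The numbers of the livers do not pair them: the deviations of same-numbered livers correlated at 0.127, −0.613, 0.122 and −0.514. With the replicate number as a block, 2 factors (Cebpb and Onecut1) were lower at that p, beside 0.765% of all genes, also with both corrections (2, beside 1.41%), and 335 genes in all in place of 1356. Rbfox2 passed the threshold with the DESeq2 test (log2 fold change −1.82, adjusted p = 0.00023).

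With 1 surrogate variable Foxa1 turned to 0.20 and Prox1 to 0.22. Nr5a2 turned to −0.02 with upper-quartile factors, −0.014 without a filter, −0.10 with the GC correction, −0.042 with both corrections, −0.041 with the block and both, and lay between −0.056 and 0.081 with 1 liver left out. The median of the 9 factors lay between −0.43 and −0.17 with 1 liver left out, and was −0.43 without L-ΔRbfox2 liver 2. It was −0.097 with 1 surrogate variable, −0.12 with both corrections and −0.14 with the block and both. The Cebpa to Cebpb log2 ratio difference lay between 0.30 and 0.46.

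Medians of the other lists moved as well. Other liver regulators were at 0.028 and sinusoidal endothelial markers at −0.0099 with 1 surrogate variable, and Kupffer cell markers lay between −0.60 and 0.053, C/EBP targets between −0.19 and 0.19, NR5A2 targets between −0.14 and 0.10, stellate cell markers between −0.12 and 0.13 and the paralogues between −0.17 and 0.03 over all alternatives. Hepatocyte products were at 0.012 with the length correction, −0.016 with both, −0.035 with the block and both, and −0.012 with 1 surrogate variable. HNF4A targets were at 0.0016, −0.05, −0.026 and 0.025 in the same order, and at 0.15 to 0.44 with 1 liver left out. FOXA targets were at −0.14, −0.12 and −0.17 with length, both, and block with both, and at −0.18 to 0.25 with 1 liver left out. The fetal list was at 0.70 with at least 10 counts in every liver, since 1 gene remained, biliary markers at 0.072 with 1 surrogate variable, and erythroid markers at 0.25 with the length correction. The causes were not tested. With 4 livers a group and 35 to 252 counts per liver, Onecut1 is the factor least well measured, and the intervals of Hnf4a, Cebpa and Foxa3 allow differences of up to about 0.7 on the log2 scale.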
